A study of Mus musculus with 4 samples.

Results

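The genes described here are 48 genes of mitosis and the spindle, chosen by name: cyclins and regulators of entry into M phase, mitotic kinases, spindle checkpoint and kinetochore genes, kinesins, condensin subunits, regulators of anaphase and genes of cytokinesis. All 48 were found among the 27179 genes of the deposited expression table, and all 48 passed the filter for testing (mean FPKM of 0.5 or more), as 13230 genes did. FPKM (fragments per kilobase and scaled to the number of mapped reads) is scaled by gene length, so levels between genes compare as far as the lengths used, which are not stated, hold.

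RNA was sequenced from Mac-1+/c-Kit+ cells, a fraction enriched for leukemia-initiating cells (LICs), from the bone marrow of C57BL/6 mice labelled as 6 weeks old. The paper describes a sort of these cells for RT-PCR, while its sequencing methods name tissue as the source of the RNA. Both groups carried the MLL-AF9 fusion oncogene, introduced by retrovirus into Lin- fetal liver cells that were then transplanted into irradiated recipients, and leukemia cells of the CD274-null group came from mice without CD274 (PD-L1, an immune checkpoint ligand). Each group has 2 libraries, labelled WT or CD274-null, and no label says whether the libraries of a group came from separate mice, so p-values measure only the spread between these libraries. The study sequenced these LICs to look for genes that act downstream of CD274.

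Mitosis starts when Cdk1, bound to cyclin A or B, is freed of inhibitory phosphate groups that Wee1 and Pkmyt1 add and Cdc25 phosphatases remove. Aurora and Polo kinases, kinesins and condensins then build the spindle and compact the chromosomes, the spindle checkpoint holds the cell until every kinetochore is attached, and the anaphase-promoting complex with Cdc20 ends the delay by marking securin and cyclin B for degradation. Transcripts of most of these genes accumulate in G2 and M and are low in resting cells, so they are widely used as readouts of proliferation. Their promoters are known for CCAAT boxes, bound by NF-Y, and for the cell cycle genes homology region (CHR), through which the DREAM and MuvB complexes repress the genes in resting cells and activate them in G2 with B-Myb and FoxM1.

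Promoter sequences show these elements in the genes measured here. The RefSeq promoter table of GRCm38.p6 (250 bases before to 50 after a listed start) held 37 of the 48 genes, and Ccna2, Cdc25c, Wee1, Pkmyt1, Foxm1, Aurkb, Incenp, Spc24, Kif20a, Tpx2 and Smc4 had no entry. Shown here are the 110 bases before the listed start of 5 genes, 5′ to 3′ on the gene's strand, with CCAAT (or ATTGG, its reverse) and CHR letters (TTTGAA, its reverse TTCAAA, or TTCGAA) in capitals. Top2a is shown as the called gene that had an entry, Kif11 as a compact case with a single match of each kind, Ccnb2 and Spc25 for their spaced CCAAT boxes, and Birc5 as a gene with neither element in these letters.
Top2a, chr11:99024190-99024299, minus strand: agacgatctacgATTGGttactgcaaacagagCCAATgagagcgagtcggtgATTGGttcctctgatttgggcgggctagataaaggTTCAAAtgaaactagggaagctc
Kif11, chr19:37376272-37376381, plus strand: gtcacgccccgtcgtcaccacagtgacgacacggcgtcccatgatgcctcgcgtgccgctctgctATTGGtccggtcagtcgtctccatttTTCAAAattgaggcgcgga
Ccnb2, chr9:70421555-70421664, minus strand: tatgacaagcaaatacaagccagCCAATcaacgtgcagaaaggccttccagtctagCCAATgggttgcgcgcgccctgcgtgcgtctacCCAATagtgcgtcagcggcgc
Spc25, chr2:69206214-69206323, minus strand: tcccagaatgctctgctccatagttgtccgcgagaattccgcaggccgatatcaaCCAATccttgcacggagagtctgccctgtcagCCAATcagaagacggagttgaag
Birc5, chr11:117849127-117849236, plus strand: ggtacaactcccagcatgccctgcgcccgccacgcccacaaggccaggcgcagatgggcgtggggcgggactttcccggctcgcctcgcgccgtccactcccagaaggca

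Counting from 0 at the listed start, the Top2a window holds CCAAT letters at -98, -78 and -58 and a CHR match at -23, and Kif11 has them at -45 and -19. In Ccnb2 the CCAAT boxes begin at -87, -54 and -21, 33 bases apart each time, and CHR matches lie at -167 and 4, outside the printed bases. Spc25 has its pair at -55 and -23, 32 bases apart, and a CHR match at 24. A pair of neighbouring CCAAT boxes 31 to 34 bases apart, a spacing chosen after the positions were seen, occurred in 6 of 37 member promoters (16.2%) and in 1.23% of all 27018 promoters.

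Of the 37 member promoters, 28 (75.7%) held CCAAT on either strand, 29 (78.4%) held a CHR match and 26 (70.3%) held both. Over all 27018 promoters of the same length the shares were 37.9%, 19.4% and 7.7%, and over the 9585 promoters of tested genes they were 39.8%, 14.3% and 6.3%. GGCGG, a GC-rich pentamer found in many promoters of housekeeping genes, was in 34 (91.9%), against 49% of all promoters and 80.6% of those of tested genes. The 6 members with neither CCAAT nor CHR letters were Birc5, Mad2l1, Nuf2, Nusap1, Ncaph and Pttg1. Ccnb1 and Cenpe had CCAAT only, and Ndc80, Kif2c and Anln had CHR letters only. The matches sat close to the start. A CHR match began between -50 and 49 in 26 members (70.3%), against 5.29% of all promoters and 3.6% of those of tested genes. CCAAT lay between -100 and -1 in 24 (64.9%), against 19.6% and 24%. These ranges were also chosen after the positions were seen. A letter match is a description of the sequence and not a bound site.

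**Figure D1:**
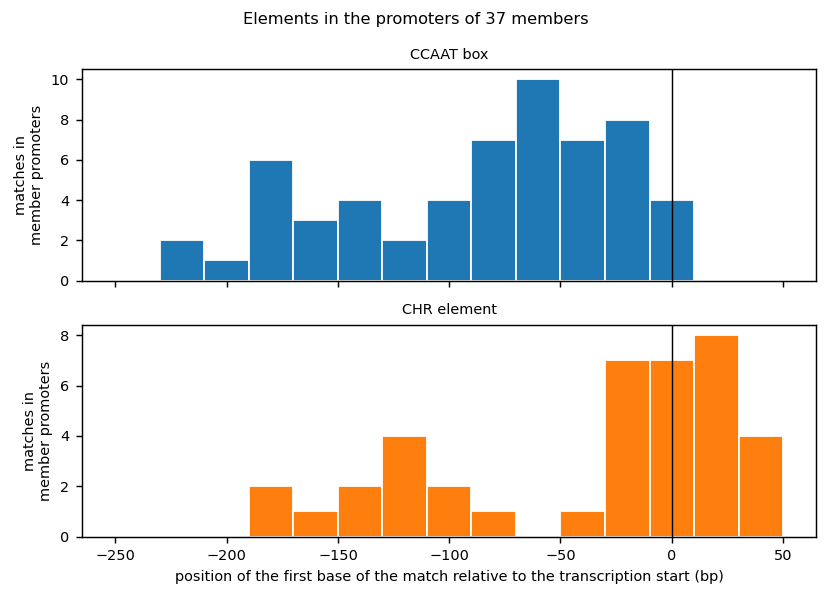
Number of CCAAT (top) and CHR (bottom) matches in the promoters of 37 members, by position of the first base of the match relative to the listed transcription start (bp, bins of 20 bp). Of 58 CCAAT matches 38 began between -100 and -1, and of 39 CHR matches 27 began between -50 and 49.

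Reads recovered from the FPKM values summed to between 8452662 and 11048767 per library. Cd274 itself did not separate the labels, at FPKM values of 2.80 and 0.945 under the label WT and of 1.43 and 2.29 under the label CD274-null. A value per gene does not show which exons the reads cover, so directions below rest on the labels. The sort markers Itgam (Mac-1, 100 to 174 FPKM) and Kit (6.59 to 19.5) were present in every library, with Kit lowest in WT replicate 1, and Hoxa9, a target of MLL-AF9, lay between 71.3 and 75.8. Mpo, a granule enzyme of early myeloid cells on the same list of 7 genes, was at 444 and 403 in WT and at 1427 and 925 in CD274-null. The list summed to 810 and 831 against 1740 and 1297, mostly Mpo. Ptprc (72.8 and 86.8 against 53.3 and 53.0) and Hoxa10 (34.4 and 38.1 against 28.1 and 24.2) were lower in CD274-null without overlap. So was Hoxa9 by a small margin (75.8 and 74.3 against 71.3 and 72.9). Meis1 was higher (35.6 and 36.3 against 44.6 and 37.9), and Itgam and Kit overlapped. All 10 mature neutrophil markers were detected, and they summed to an FPKM of 43483 and 8796 in WT and to 18350 and 31402 in CD274-null: WT replicate 1 was highest and WT replicate 2 lowest. Globin RNA was highest in WT replicate 2 (Hbb-bs 26.9 against 0 to 3.01 elsewhere), while Slc4a1 was listed at 0 in all 4. Summed T and NK markers, of which 2 of 12 reached a mean FPKM of 0.5, were at 33.5 and 13.8 against 71.8 and 88.1, mostly Nkg7 (32.4 and 11.7 against 67.2 and 85.7), while Cd3d was at 0.595 or below in all 4. Summed macrophage markers, 6 of 8, were at 147 and 144 against 89.5 and 106, mostly Vcam1 (117 and 92.3 against 53.7 and 59.8), while Adgre1 overlapped between the groups. Igkc, an immunoglobulin light chain of B and plasma cells, was at 8.64 and 7.98 in WT and at 214 and 189 in CD274-null. Summed B lineage markers, of which 1 of 11 reached a mean FPKM of 0.5, were at 13.2 and 37.5 against 38.3 and 41.2, with WT replicate 2 close to the CD274-null libraries. Plasma cell markers, 3 of 8, summed to 178 and 68.1 against 148 and 119, an overlap that was mostly Xbp1 (177 and 66.8 against 133 and 106). On that list Jchain was at 0.370 and 0.514 against 12.3 and 10.5, and Mzb1 at 0 and 0 against 0.998 and 0.333, while Sdc1 overlapped. Xist was at 2.57, 51.1, 107 and 68.7 and 4 Y-linked genes summed to 86.0, 66.2, 0.0460 and 29.4 in the order WT replicate 1, WT replicate 2, CD274-null replicate 1, CD274-null replicate 2, so WT replicate 2 and CD274-null replicate 2 held both. The part of these differences in the results below was not tested.

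The mitotic genes were well expressed in every library. Mean FPKM ran from 8.98 for Cenpf, a large kinetochore protein, to 164 for Smc4, the condensin ATPase subunit, with a median of 32.8, and 26 of 48 lay above the 75th percentile of tested genes. In a single library the lowest value was 4.83 (Wee1) and the highest 219 (Smc4). Smc4 was followed by Ccnb2 (108), Mki67 (88.0) and Ube2c (85.2, where the length that recovered reads imply is 2.35 times below that of its transcript), and those with the lowest levels after Cenpf were Pttg1 (10.5), Wee1 (10.9) and Ccnb1 (11.6). Cyclin B2 thus had a mean FPKM of 108 where cyclin B1 had 11.6. For Ccnb1, however, 42.1% of the 50-base stretches of its transcript occur in transcripts of other genes, among them the pseudogene Ccnb1-ps, and the way such reads were counted is not stated. Such sharing exceeded 10% in 10 members, with Ccnb1 and Kif20a highest, and was 0 in 22. Recovered reads per member and library ran from 23 to 10362 and are lower bounds.

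**Figure D2:**
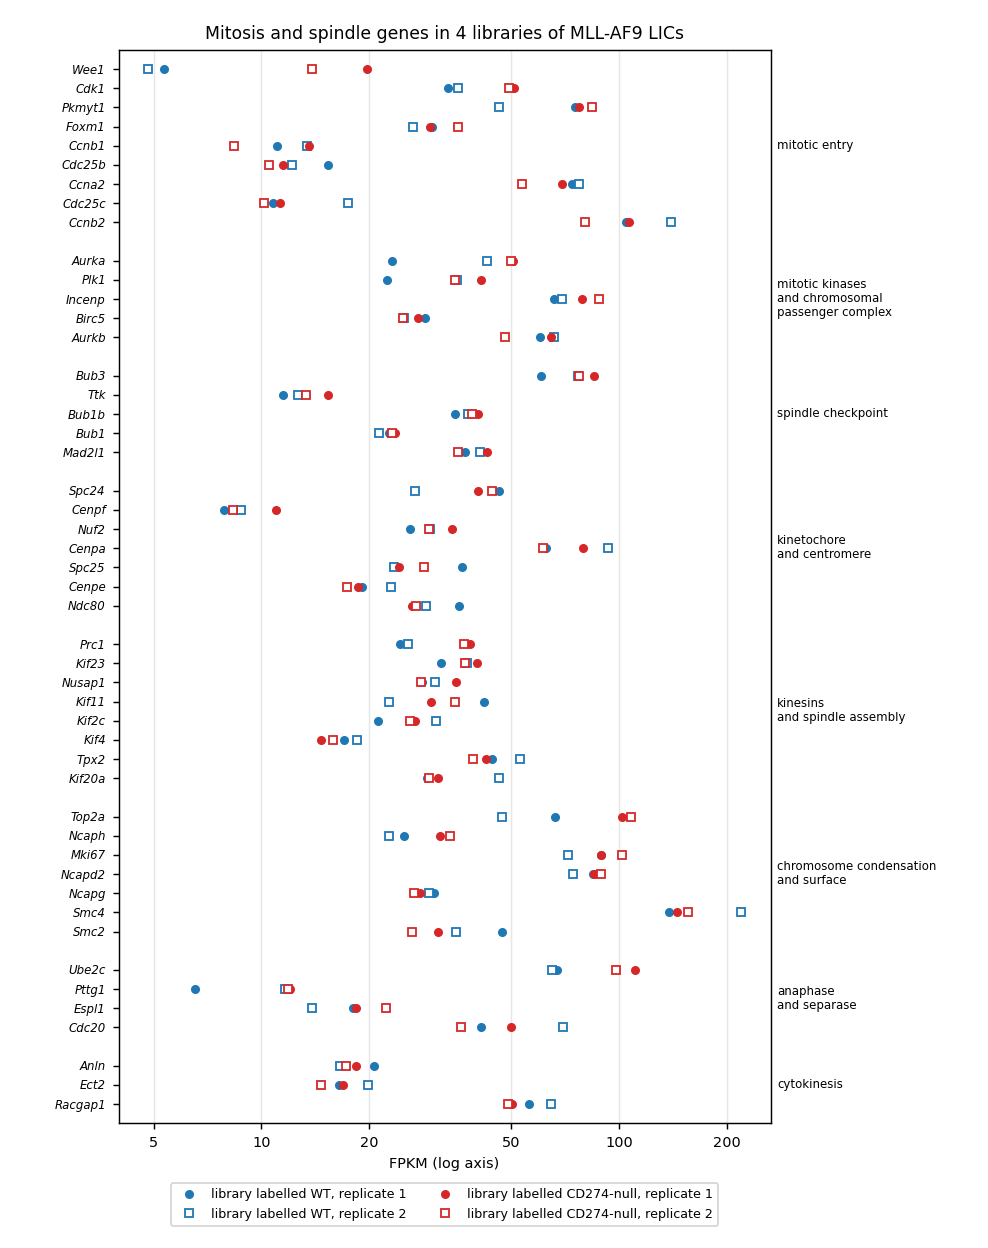
FPKM (log axis) of each of the 48 members in the 4 libraries, grouped by role; blue marks libraries labelled WT and red those labelled CD274-null, filled circles replicate 1 and open squares replicate 2. Wee1 shows the widest space between the groups (4.83 and 5.33 against 13.9 and 19.7), and most other members overlap or nearly touch.

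As a group the mitotic genes lay close to equal between the labels. The median log2 fold change (CD274-null against WT, on log2(FPKM + 0.5), which understates changes of low genes) was 0.074 over the 48 members and 0.012 over all tested genes, with 26 members above 0 and 22 below. Wee1 and Top2a were candidates, called at a fold change over 1.5 with an unadjusted p below 0.01, both higher in CD274-null. That is 4.17% of the members, where 2.39% of all tested genes passed as higher and 1.24% as lower. No member had an adjusted p under 0.05 (limma, Benjamini-Hochberg; members from 0.214 to 0.998), against 0.0756% of all tested genes, and with voom on recovered reads no gene of the table did. At an unadjusted p under 0.05, 5 members were higher (10.4% against 8.04% of all genes) and 0 were lower (against 5.7%). In bulk RNA, fewer cells in G2 and M and less of these transcripts per cell cannot be told apart.

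Both values of a group lay on the same side of both values of the other for 17 members that were higher in CD274-null (35.4%, against 25.6% of all tested genes) and for 9 that were lower (18.8%, against 21.8%), and 22 overlapped. The 95% interval of the log2 fold change lay inside a 2-fold change in either direction for 35 of 48 members and included 0 for 43. The median standard error was 0.23. For most of these genes, then, a difference of more than 2-fold lay outside the interval, while smaller differences were not resolved with 2 libraries per group.

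**Figure D3:**
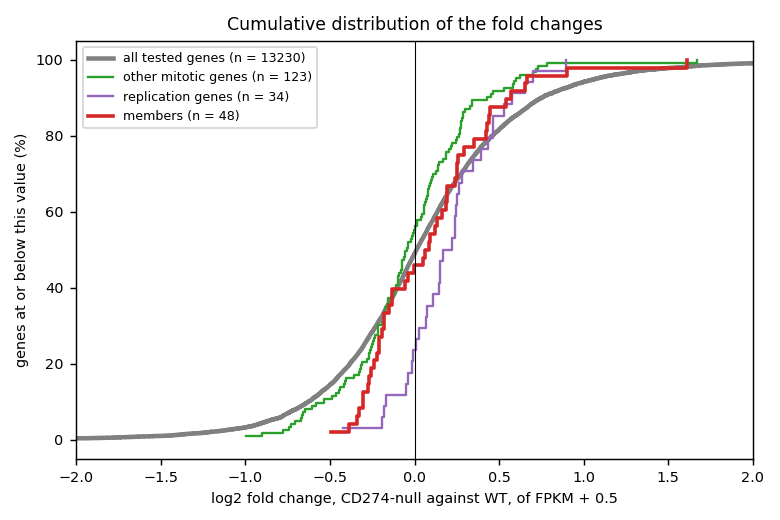
Cumulative share of genes (%) by log2 fold change, CD274-null against WT, of FPKM + 0.5, for the 48 members (red), 123 other mitotic genes (green), 34 replication genes (purple) and all 13230 tested genes (grey). The members' curve crosses 0 near that of all genes and runs from -0.49 to 1.61.

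Among the 9 genes of mitotic entry, Wee1, the kinase that adds the inhibitory phosphate to Cdk1, differed most. Wee1 (NCBI gene 22390, chromosome 7, 110122059 to 110143299 in GRCm38) had an FPKM of 5.33 and 4.83 in WT and of 19.7 and 13.9 in CD274-null, from 211, 168, 596 and 472 reads. The groups did not overlap, and both CD274-null values were above both WT values by more than 2-fold. Its log2 fold change was 1.61 (SE 0.29, 95% interval 0.92 to 2.30, adjusted p = 0.214, limma). No 50-base stretch of its transcript is shared with another gene. The call was lost without CD274-null replicate 1 (1.37), without CD274-null replicate 2 (1.86) and in a linear model without moderation (1.61), while the direction was kept. Pkmyt1, the membrane-bound kinase of the same kind, was at 75.2 and 46.1 in WT and at 77.1 and 84.0 in CD274-null (log2 fold change 0.45, SE 0.28, adjusted p = 0.515, limma). That value was 0.80 without WT replicate 1, 0.098 without WT replicate 2 and 0.22 under GC correction.

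Cdk1 (NCBI gene 12534), the kinase that drives entry into mitosis, had FPKM values of 33.1 and 35.5 in WT and of 50.9 and 49.2 in CD274-null. The replicates lay close together and the groups apart, with a log2 fold change of 0.54 (SE 0.20, adjusted p = 0.338, limma), short of the candidate thresholds. Its cyclin partners did not have the same direction. Ccna2 was at 73.6 and 77.04 in WT and at 69.1 and 53.5 in CD274-null, without overlap (log2 fold change -0.31, adjusted p = 0.560). Ccnb1 was at 11.1 and 13.4 against 13.6 and 8.37, and its sign turned to 0.15 without CD274-null replicate 2. Ccnb2 was at 105 and 140 against 107 and 80.0 and overlapped. The phosphatase genes Cdc25b and Cdc25c had log2 fold changes of -0.30 (without overlap) and -0.34, and neither passed a threshold. In both, the gap between the WT libraries (log2 -0.33 and 0.67) was larger than that difference, and in Cdc25c WT replicate 2 stood above the other libraries. Foxm1, the transcription factor that activates G2/M genes, was at 30.0 and 26.6 in WT and at 29.6 and 35.3 in CD274-null (log2 fold change 0.19) and overlapped.

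Of the 5 genes of mitotic kinases and the chromosomal passenger complex, Aurka and Incenp were higher in CD274-null without overlap, and 0 passed the candidate thresholds. Aurka, the centrosomal Aurora kinase, was at 23.1 in WT replicate 1 and at 42.8 in WT replicate 2, and at 50.6 and 49.9 in CD274-null. The gap between its WT libraries was larger than that between WT replicate 2 and either CD274-null library, and the log2 fold change was 0.67 (SE 0.32, adjusted p = 0.413, limma). Without WT replicate 2 it was 1.10 and a candidate, and without WT replicate 1 it was 0.23. Plk1, the Polo kinase, had the same low WT replicate 1, at 22.4 against 35.2, 41.1 and 34.8. The passenger complex holds Aurkb, Birc5 (survivin) and Incenp. Aurkb was at 60.1 and 65.8 in WT and at 64.3 and 47.8 in CD274-null, Birc5 at 28.6 and 25.1 against 27.4 and 24.8, and Incenp at 65.8 and 69.4 against 78.6 and 87.6. The log2 fold changes were -0.18, -0.038 and 0.29, and those of Aurkb and Birc5 changed sign when a library was left out (0.031 without CD274-null replicate 2 for both, and 0.053 without WT replicate 1 for Birc5).

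The 5 spindle checkpoint genes stayed within a narrow range, from a log2 fold change of -0.0013 (Mad2l1) to 0.25 (Bub3). Ttk (Mps1), the kinase that starts checkpoint signalling, was at 11.5 and 12.7 in WT and at 15.3 and 13.3 in CD274-null. Mad2l1, which holds Cdc20 inactive, was at 37.1 and 40.9 against 42.8 and 35.4, with groups that overlapped and a 95% interval of the log2 fold change from -0.52 to 0.52. Bub1, Bub1b and Bub3, which load the checkpoint onto kinetochores, were each higher in CD274-null without overlap, as was Ttk, 4 of 5 where 25.6% of all tested genes were, but by 0.25 or less on the log2 scale and with adjusted p from 0.637 to 0.884 (limma).

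No kinetochore or centromere gene passed an unadjusted p of 0.05, and the 7 genes ran from -0.26 to 0.26 on the log2 scale. Cenpa, the histone H3 variant that marks centromeres, was at 62.3 and 93.3 in WT and at 79.1 and 61.1 in CD274-null, so each group spanned much of the range of the other. Ndc80, the microtubule-binding subunit, was at 35.7 and 28.8 against 26.4 and 27.1, without overlap (log2 fold change -0.26, adjusted p = 0.625). Its partners Nuf2, Spc24 and Spc25 overlapped, with log2 fold changes of 0.18, 0.26 and -0.15. The 4 subunits of a single complex thus had values on both sides of 0. For Spc24 and Spc25, however, both CD274-null values fell between the WT values, so their signs depend on the WT library used. For Spc24 the recovered reads (23 to 45 per library) are a lower bound and imply a length 20.1 times below that of its transcript. Cenpf was at 7.84 and 8.79 in WT and at 10.97 and 8.31 in CD274-null.

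Among 8 kinesin and spindle assembly genes, Prc1, which bundles midzone microtubules in anaphase, had the highest fold change. Prc1 (NCBI gene 233406) was at 24.5 and 25.8 in WT and at 38.3 and 36.7 in CD274-null, a log2 fold change of 0.57 (SE 0.20, adjusted p = 0.333, limma). The groups stood apart by more than the gaps within them. Of its transcript, 26.6% of 50-base stretches occur in transcripts of other genes, Rccd1 among them, and a strand setting is not stated, so reads could be shared. Kif11 (Eg5), the motor that separates the spindle poles, was at 42.0 and 22.7 in WT and at 29.8 and 34.8 in CD274-null. Both CD274-null values fell between the WT values, and the sign of its log2 fold change (0.060) turned to -0.38 without WT replicate 2 and to -0.048 without CD274-null replicate 2. Kif4 and Tpx2 were lower without overlap (-0.21 and -0.24), and Kif20a, Kif23, Kif2c and Nusap1 overlapped.

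Top2a stood out among the 7 genes of chromosome condensation and surface. Top2a (NCBI gene 21973, chromosome 11, 98992947 to 99024199), the topoisomerase that untangles sister chromatids, was at 66.3 and 47.0 in WT and at 102 and 108 in CD274-null, from 2494 to 5607 reads. The groups did not overlap, and the log2 fold change was 0.90 (SE 0.24, 95% interval 0.32 to 1.48, adjusted p = 0.274, limma). Its unadjusted p lay just below the threshold. The call was lost without WT replicate 2 (0.66), without CD274-null replicate 1 (0.95) and without CD274-null replicate 2 (0.86). It was also lost without the filter on low genes, with equal medians, with eBayes without trend, without moderation and with voom, while the log2 fold change stayed between 0.88 and 1.02 in the alternatives that kept all 4 libraries. Mki67 (Ki-67), the chromosome surface protein used to stain dividing cells, was at 88.9 and 72.1 in WT and at 89.0 and 102 in CD274-null (log2 fold change 0.25, adjusted p = 0.636), so WT replicate 1 and CD274-null replicate 1 were nearly equal.

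The condensin I subunits had values in both directions. Smc2, a core ATPase, was at 47.1 and 35.0 in WT and at 31.2 and 26.4 in CD274-null, the lowest fold change of the 48 in the fit reported (log2 -0.49, SE 0.24, adjusted p = 0.420, limma). Its value ran from -0.52 to -0.36 over the alternatives that kept all 4 libraries and from -0.71 to -0.28 when libraries were left out. Its partner Smc4 was at 138 and 219 against 145 and 156, where WT replicate 2 stood above the other 3 libraries, and its log2 fold change turned from -0.21 to 0.12 without that library. Ncaph, the kleisin that closes the ring, was at 25.1 and 22.7 in WT and at 31.6 and 33.7 in CD274-null, without overlap (0.44, adjusted p = 0.410). Ncapd2 and Ncapg, the HEAT-repeat subunits, had log2 fold changes of 0.13 and -0.13. None of the 5 passed an unadjusted p of 0.05.

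In anaphase, Ube2c, the ubiquitin-conjugating enzyme of the anaphase-promoting complex, was at 66.9 and 65.1 in WT and at 111 and 98.2 in CD274-null. The groups stood apart, with a log2 fold change of 0.66 (SE 0.20, adjusted p = 0.296, limma), past 1.5-fold but not past the p of 0.01. Of the Ube2c transcript, 17.8% of 50-base stretches occur in transcripts of other genes, Tnnc2 among them. Cdc20, the activator of that complex, was at 41.0 and 69.6 in WT and at 49.9 and 36.1 in CD274-null, an overlap, and its log2 fold change of -0.33 became 0.051 without WT replicate 2. Pttg1 (securin), the inhibitor of separase, was at 6.52 and 11.6 against 12.04 and 11.8, with WT replicate 1 apart from the other 3. Espl1, the separase that cuts cohesin, was at 18.0 and 13.8 against 18.4 and 22.3. Of the 3 cytokinesis genes, Racgap1, a subunit of centralspindlin, was at 55.9 and 64.5 in WT and at 50.3 and 48.9 in CD274-null without overlap (log2 -0.27, adjusted p = 0.572, limma). Anln and Ect2 overlapped (-0.054 and -0.19), with larger gaps between their WT libraries (log2 -0.31 and 0.25). Both CD274-null values of Anln fell between its WT values, and without WT replicate 1, 1 of the 3 genes was above 0.

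**Figure D4:**
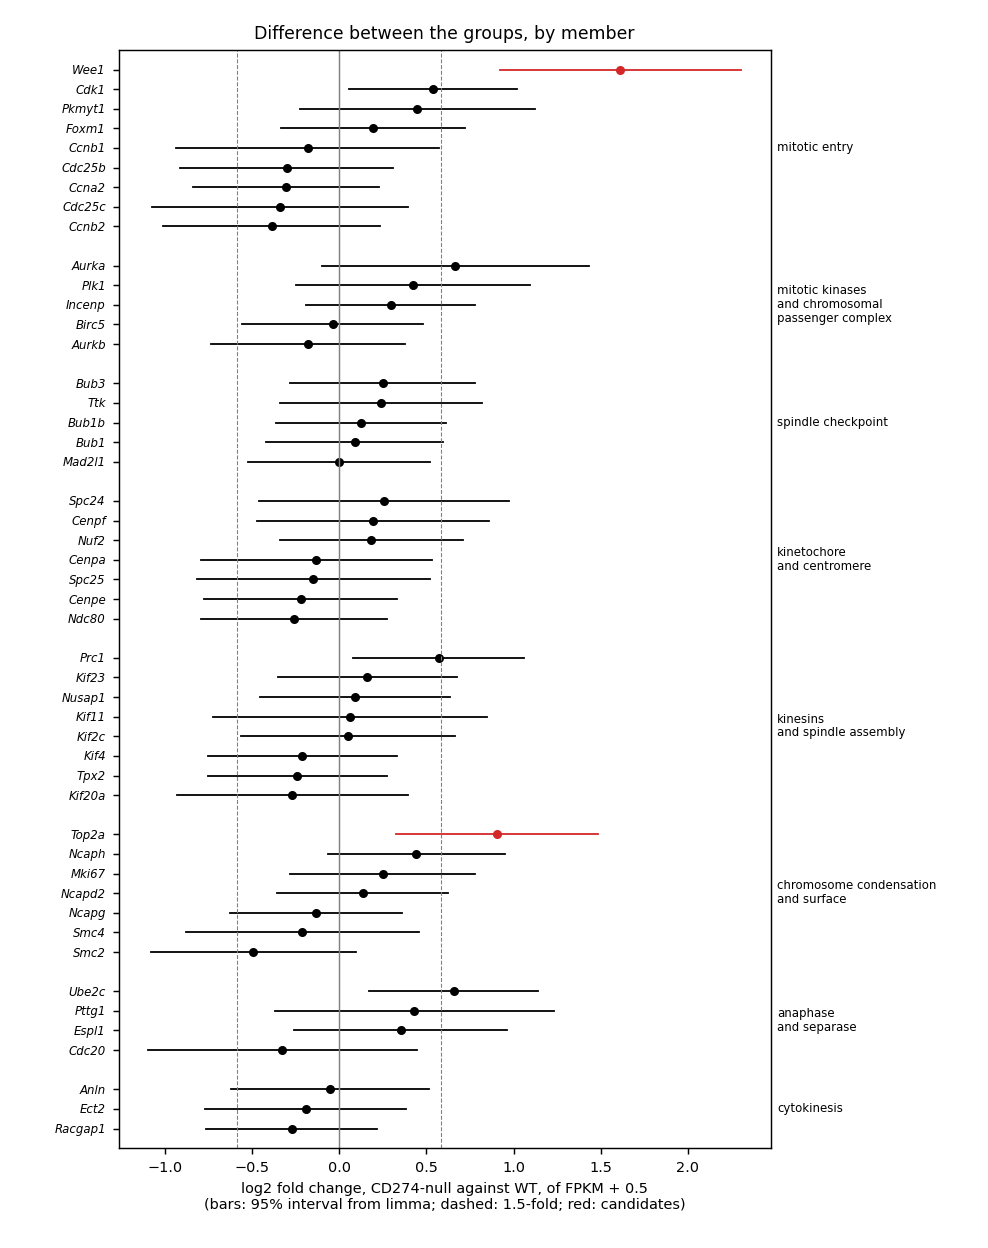
Log2 fold change (CD274-null against WT, of FPKM + 0.5) of each member with its 95% interval from limma, grouped by role; dashed lines mark 1.5-fold and red marks the 2 candidates. Wee1 (1.61) and Top2a (0.90) lie to the right, and the intervals of 43 of 48 members include 0.

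Between the WT libraries, 11 of 48 members differed by more than 1.5-fold (22.9%, against 28.8% of all tested genes), 7 higher and 4 lower in WT replicate 2. Between the CD274-null libraries only Ccnb1 did (2.08%, against 18.9%). The median absolute log2 difference was 0.26 between the WT and 0.14 between the CD274-null libraries, against 0.34 and 0.28 over all tested genes. The gap within WT was larger than the difference between the group means for 30 of 48 members (62.5%, against 52.8% of all tested genes), and the gap within CD274-null for 16 (33.3%, against 45.5%).

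The 7 members higher in WT replicate 2 by more than 1.5-fold were Aurka (log2 difference 0.87), Pttg1 (0.79), Cdc20 (0.76), Cdc25c (0.67), Smc4 (0.66), Kif20a (0.66) and Plk1 (0.64). Kif11 (-0.87), Spc24 (-0.77), Pkmyt1 (-0.70) and Spc25 (-0.62) were lower in it by more than 1.5-fold. WT replicate 2 was also the library with the lowest neutrophil sum, and the part of that difference in these values was not tested. In 26 members the replicate 2 library was higher in WT and lower in CD274-null, and in 11 it was the reverse, with a Spearman correlation of -0.45 across the 48 genes and of 0.0046 across all tested genes. This is a description, since genes of a library share its cells and depth.

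**Figure D5:**
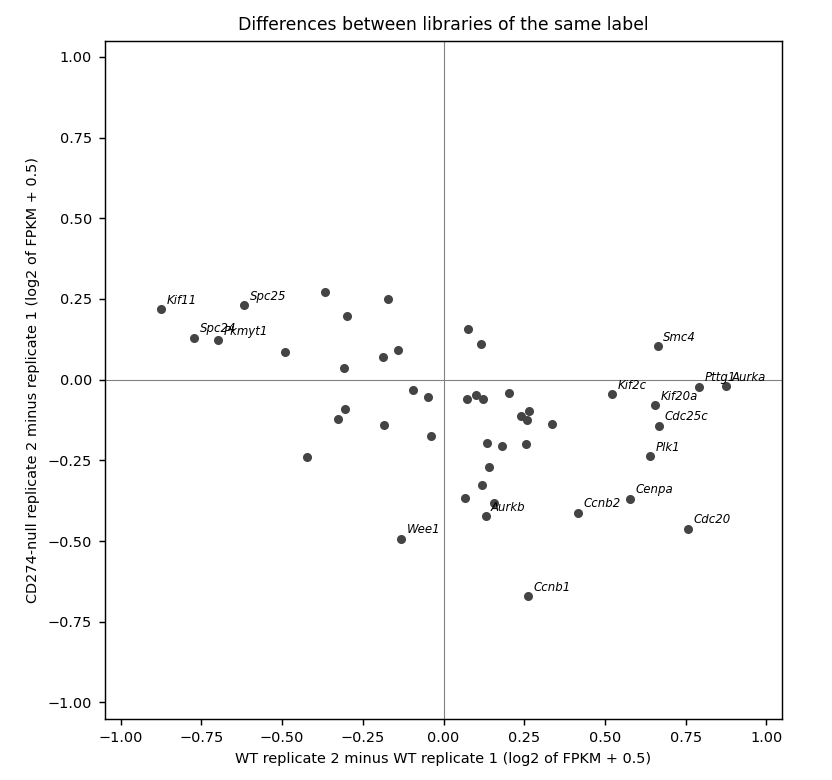
Difference between replicate 2 and replicate 1 within WT (horizontal) and within CD274-null (vertical), as log2 of FPKM + 0.5, each point a member; named members differ by more than 0.5 within WT or 0.4 within CD274-null. The points spread from -0.87 to 0.87 across WT and from -0.67 to 0.27 across CD274-null.

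The 26 members with both elements had a median log2 fold change of 0.13 (from -0.49 to 0.90) and the 6 with neither of 0.14 (from -0.038 to 0.44). The median was -0.20 for the 2 genes with CCAAT only, -0.054 for the 3 with CHR letters only and -0.18 for the 11 without an entry. Of the 10 members with the largest absolute fold change, Top2a, Smc2, Cdk1, Aurka, Ube2c and Prc1 hold both. Ncaph and Pttg1 hold neither, and Wee1 and Pkmyt1 have no entry. Median FPKM was 35.8 with both and 29.0 with neither. GC content had a Spearman correlation with the log2 fold change of 0.24 across the 48 members and of 0.27 across 11435 tested genes with a value. With every library corrected for GC content, the members' median was 0.079, and both candidates passed.

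Beyond these 48, the mitotic apparatus was followed in 123 further genes of kinetochore, spindle, anaphase-promoting complex, cohesin, condensin II and the DREAM and MuvB complexes. Their median log2 fold change was -0.043, with 54 above 0 and 69 below. Without CD274-null replicate 2 the tally was the reverse, 69 above and 54 below (median 0.047), and without CD274-null replicate 1 it was 49 and 74 (-0.16), so no direction is read from it. The median was -0.014 without WT replicate 1 and -0.019 under GC correction. Knl1, the kinetochore scaffold for the Bub proteins, was the only candidate (0.813%, against 1.24% of all genes as lower), at an FPKM of 12.9 and 12.3 in WT and of 6.76 and 5.39 in CD274-null. Its log2 fold change was -0.998 (SE 0.26, adjusted p = 0.274, limma), opposite in sign to the Bub genes it recruits, and without any of the 4 libraries in turn it was no longer a candidate (log2 fold changes from -1.15 to -0.85). The 14 genes of DREAM, MuvB and NF-Y, which act at CHR and CCAAT elements, had a median of -0.12, which ran from -0.24 without CD274-null replicate 1 to 0.014 without CD274-null replicate 2, and was -0.028 without WT replicate 1, -0.054 without WT replicate 2, -0.19 over genes at a mean FPKM of 5 or more and -0.039 under GC correction. Among them Nfya, a subunit of NF-Y, was at 22.6 and 18.3 in WT and at 37.3 and 33.5 in CD274-null (0.78, adjusted p = 0.288), and Lin54, the CHR-binding subunit of MuvB, at 10.6 and 9.52 against 6.26 and 5.66 (-0.71, adjusted p = 0.339). Both had an unadjusted p under 0.05 and missed the candidate threshold. The 17 genes of the anaphase-promoting complex had a median of 0.017, from -0.0071 to 0.11 over the alternatives, and 0 passed an unadjusted p of 0.05 with all 4 libraries. Fbxo5 (Emi1), an inhibitor of that complex, was at 21.4 and 10.8 in WT and at 24.6 and 21.7 in CD274-null, and was a candidate without WT replicate 1. Fzr1 (Cdh1), an activator of it, was at 20.8 and 35.3 against 40.3 and 38.5, and was a candidate without WT replicate 2. In both genes the WT library that was kept was the lower.

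Replication genes, which act in S phase, were the nearest comparison. Over 34 genes of licensing and the fork the median log2 fold change was 0.19, with 26 above 0, where 6757 of all 13230 tested genes were. It was -0.021 without WT replicate 2 and 0.45 without WT replicate 1, so its size rested on the WT library used. The 1 candidate (2.94%, against 2.39% of all tested genes as higher) was Rfc2, a clamp loader subunit, at 76.2 and 53.4 in WT and at 113 and 126 in CD274-null (0.90, SE 0.25, adjusted p = 0.275, limma). It was no longer a candidate without WT replicate 2 (0.64), without CD274-null replicate 1 (0.98) or without CD274-null replicate 2 (0.82), and among the alternatives that kept all 4 libraries it passed only with a pseudocount of 1. In Rfc2, as in Top2a, WT replicate 2 was the lowest library. The difference between the mitotic and the replication genes was not tested.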

How the data were processed

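RNA from LICs was sequenced in 4 libraries, 2 per group. The authors made TruSeq v2 libraries, used TopHat for alignment to GRCm38 and deposited an FPKM value for each gene and library. The submitters' processing notes name CASAVA 1.8.2 and TopHat2 2.0.12. The program, gene lengths and strand setting behind FPKM are not given in the sources used here. Labels gave each library its group and replicate, and 0 sample columns had none. Symbols came from RefSeq GRCm38.p6 (25275 of 27179 genes).

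Ratios of the FPKM values of a gene gave back whole reads, which, recovered for 17083 genes (100% of those above 0 in 2 libraries, tolerance 0.001), are lower bounds where all 4 share a factor. The length they imply was within 20% of the annotated transcript for 39 of 48 members and furthest below it for Spc24 (20.1 times), Cdc25b (9.79) and Mad2l1 (4.38); the cause was not tested.

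Groups were compared in R 4.3.3 with limma 3.58.1 (two-sided, lmFit and trended eBayes) on log2(FPKM + 0.5), for the 13230 genes at a mean FPKM of 0.5 or more, adjusted by Benjamini-Hochberg over all of them. Candidates had a fold change over 1.5 with an unadjusted p below 0.01; the paper gives these limits without saying whether its p was adjusted. The paper names Student's test in general, which is the alternative without moderation. Values in every library are given for candidates, the 10 members with the largest absolute fold change, 18 anchor genes, the highest and lowest member, and listed genes outside the members that were candidates. Ccnb2, Incenp, Nfya, Lin54, Fbxo5 and Fzr1 were added after their values were seen, as were Fam83d, Stag2, Wapl, Rad21 and Pds5a. Members and lists were chosen with earlier results of these data known. Transcript sequence and GC content came from GENCODE vM21. The fit was tested on simulated data. Python 3.11.15 was used for promoter motifs.

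Alternatives were pseudocounts of 0.1 and 1, all genes above 0, genes at a mean FPKM of 5 or more, quantile normalization, equal medians, eBayes without trend, no moderation, the replicate number as a block, voom on recovered reads, a loess correction for GC content (span 0.3), also with the block, and leaving out each library. Some alternatives test fewer or more genes.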

Additional observations from a re-analysis of the deposited data

How the results depend on the processing

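The 2 member candidates remained under a pseudocount of 1 or 0.1, a filter at a mean FPKM of 5, quantile normalization, GC correction and the replicate block. The count was 1 (Wee1) without the filter, with equal medians, with eBayes without trend and with voom on recovered reads, and 0 without moderation. Leaving out 1 library gave 0 to 2: Top2a and Wee1 without WT replicate 1, Aurka and Wee1 without WT replicate 2, and 0 without either CD274-null replicate. Where 1 library is left in a group it is assumed to vary like the others. The members' median log2 fold change ran from 0.050 to 0.079 over the other alternatives and from 0.014 (without CD274-null replicate 1) to 0.10 when libraries were left out. Among other mitotic genes the count of candidates was 1, with 2 under quantile normalization, 3 with equal medians, 0 under GC correction and 0 to 2 when libraries were left out (Fbxo5 and Zw10 without WT replicate 1, Fzr1 and Haus3 without WT replicate 2, Fam83d without CD274-null replicate 1). Knl1, the candidate of the fit reported, was replaced by Stag2 without the filter, by Haus8 without moderation and by Fam83d under the replicate block, with or without GC correction. Mad2l1 turned from -0.0013 to 0.12 under GC correction, with or without the replicate block. When libraries were left out the log2 fold change ran from -0.39 to 0.031 for Aurkb, -0.13 to 0.053 for Birc5, -0.52 to 0.15 for Ccnb1, -0.71 to 0.051 for Cdc20, -0.42 to 0.16 for Cenpa, -0.38 to 0.50 for Kif11, -0.14 to 0.13 for Mad2l1 and -0.54 to 0.12 for Smc4. The sign was kept but the value moved by over 1.5 times for Ccna2 (-0.49 to -0.12), Foxm1 (0.068 to 0.32), Mki67 (0.099 to 0.40), Ndc80 (-0.41 to -0.11), Racgap1 (-0.38 to -0.17) and Smc2 (-0.71 to -0.28). The same held for Cenpf (0.0010 to 0.38), Plk1 (0.10 to 0.74), Pttg1 (0.035 to 0.83), Espl1 (0.17 to 0.54), Ttk (0.14 to 0.34), Aurka (0.23 to 1.10) and Pkmyt1 (0.098 to 0.80). These ranges cover the 29 genes followed by name, and other members, such as Spc24, Spc25, Cdc25c and Anln, are not listed here. The cause of these changes was not tested. Over all genes, candidates split into 316 higher and 164 lower, and into 253 and 210 under quantile normalization, 247 and 200 with equal medians and 161 and 169 under GC correction; without moderation they were 119 and 51.

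No label says whether same-numbered libraries were handled together, and the correlation of their deviations, -0.015, does not settle it. With the replicate number as a block, 21 genes of the table had an adjusted p under 0.05 (limma), against 10 without it. With the replicate block the candidates over all genes were 334 and 192, and 2 members were called, the same genes as without it, while Knl1 and Rfc2 were no longer candidates. With 2 libraries in a group, limma takes most of a gene's spread from the other genes.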

Other observations

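Cohesin, the ring that holds sister chromatids together until separase cuts it, had most of its genes below 0. Of 15 genes for cohesin and its regulators, 13 had log2 fold changes below 0 and 10 were lower in CD274-null without overlap (21.8% of all tested genes were). The median was -0.26, and it ran from -0.42 without WT replicate 2 to -0.21 without CD274-null replicate 2. There were 0 candidates, but Stag2 passed without the filter, Wapl under quantile normalization and both with equal medians. With voom, the replicate block or GC correction 0 passed. Stag2, a regulatory subunit, was at 64.4 and 76.0 FPKM in WT and at 44.2 and 39.3 in CD274-null (log2 fold change -0.74, adjusted p = 0.284, limma). Wapl, the factor that releases cohesin from chromatin, was at 40.8 and 47.0 against 28.1 and 22.7 (-0.78, adjusted p = 0.288). Rad21, the kleisin cut by separase, was at 148 and 133 against 96.1 and 80.3 (-0.67, adjusted p = 0.303), and Pds5a, a partner of Wapl, at 82.4 and 59.4 against 49.1 and 42.5 (-0.61, adjusted p = 0.352). These genes were low in GC content (median 41.9%, against 50.8% over tested genes), and after a correction for GC content the median was -0.19, with 14 of 15 below 0.

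Fam83d, which recruits casein kinase to the spindle, was at 4.13 and 3.61 in WT and at 7.76 and 22.8 in CD274-null (1.67, SE 0.50, adjusted p = 0.295, limma). It was a candidate under the replicate block and without CD274-null replicate 1. It had the highest fold change of the 123 other mitotic genes, and the CD274-null libraries differed from each other by more than CD274-null replicate 1 did from WT.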
